A study of Mus musculus with 20 samples.

Results

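The libraries described here are 6 of the 20 RNA sequencing libraries of the series: those of mouse liver 48 h, 72 h and 7 d after partial hepatectomy, with 2 libraries per time. They fall into 2 groups chosen by a measured value, the transcript level of Bub1, a kinase of the spindle checkpoint, in FPKM (fragments per kilobase of exon, scaled to library size). The 4 libraries above 3 FPKM are called mitosis-high (48 h replicate 1, 72 h replicates 1 and 2, 7 d replicate 2) and the 2 below it mitosis-low (48 h replicate 2, 7 d replicate 1). Because a measured value chose the groups, every difference between them is a description with no test, and the mitotic genes among them restate the choice.

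All 6 libraries came from C57BL/6 mice after surgical removal of 70% of the liver, with no other treatment, and the growth protocol describes hepatocytes freshly isolated from the regenerating organ. The cell type is labelled primary hepatocyte for replicate 1 only and is not given for replicate 2 of these times. Neither the age of the mice nor whether replicates were separate animals is stated, so the spread between libraries may in part be technical. The other 14 libraries were undamaged liver (2), liver at 6, 12 and 24 h (6) and at 14 and 21 d (4) after the operation, and hepatocyte organoids grown in Matrigel (2).

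After partial hepatectomy the remaining hepatocytes leave quiescence, copy their DNA and divide until liver mass is restored. Genes of mitosis are switched on late, in G2, largely by MuvB complexes with B-MYB and FOXM1, which act through a promoter element known as the CHR (TTTGAA is one of its forms), often close to CCAAT boxes bound by NF-Y. Between meals and in fasting, hepatocytes burn fatty acids in mitochondria and peroxisomes and make ketone bodies, a programme driven by the nuclear receptor PPARA, which binds direct repeats of the AGGTCA kind together with RXR.

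Promoter sequences of these 2 classes are shown first, since mitotic genes are the largest group among the higher genes and the fatty acid list holds the most members among the lower ones. Most other genes that separate the libraries belong to neither class. The sequences are from RefSeq (GRCm38.p6), cover 150 bases before the annotated start on the gene's strand, and carry CCAAT and TTTGAA in capitals, either as these letters or as their reverse complements ATTGG and TTCAAA. Bub1 is shown because it chose the groups, Kpna2, Cdc20 and Ube2c because they were the 3 of highest level among the higher mitotic genes with TTTGAA in this window, and Cdk1, chosen after its values were seen, because it holds both elements in pairs.
Bub1, chr2:127831860-127832009, minus strand: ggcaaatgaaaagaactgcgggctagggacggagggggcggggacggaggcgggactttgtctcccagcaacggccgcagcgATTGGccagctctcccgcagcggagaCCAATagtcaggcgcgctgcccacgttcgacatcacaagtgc
Kpna2, chr11:106999526-106999675, minus strand: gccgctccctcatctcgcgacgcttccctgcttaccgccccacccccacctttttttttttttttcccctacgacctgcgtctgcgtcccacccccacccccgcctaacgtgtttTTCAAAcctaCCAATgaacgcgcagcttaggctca
Cdc20, chr4:118437344-118437493, minus strand: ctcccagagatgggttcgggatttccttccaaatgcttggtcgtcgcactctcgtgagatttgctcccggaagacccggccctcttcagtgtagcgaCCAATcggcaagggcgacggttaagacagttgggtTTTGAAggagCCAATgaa
Ube2c, chr2:164769779-164769928, plus strand: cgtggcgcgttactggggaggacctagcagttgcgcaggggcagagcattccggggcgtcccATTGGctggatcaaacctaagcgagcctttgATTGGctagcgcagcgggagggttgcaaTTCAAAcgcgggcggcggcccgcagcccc
Cdk1, chr10:69352913-69353062, minus strand: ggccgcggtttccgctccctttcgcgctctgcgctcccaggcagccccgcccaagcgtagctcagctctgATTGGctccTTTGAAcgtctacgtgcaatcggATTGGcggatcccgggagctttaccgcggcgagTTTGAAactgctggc

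Over the 250 bases before to 50 after the start, on either strand, TTTGAA was found for 38 of the 57 mitotic genes that were higher in the mitosis-high libraries and have a RefSeq promoter (66.7%). The share was 14.6% of the 7586 genes described that have a promoter, 20.4% of 49 other higher genes outside the cell cycle lists and 18.5% of 27 genes of the fatty acid list. CCAAT was found for 71.9% of those mitotic genes and for 43.8%, 55.1% and 51.9% of the same 3 sets. Mitotic list genes that were not higher were not counted apart, so neither share can be tied to the difference between libraries. The 2 motifs were counted separately, also where matches share bases, and a match is a run of letters, not a binding site. A direct repeat of AGGNCA (N is any base) with 1 base between its copies was found for 29 of the 7586 genes (0.382%) and, within the fatty acid list, for Fabp1 alone (1 of 27). Among the lower genes with a promoter the repeat was found for 1 of 26, Apoc2. RefSeq promoters used here had 0 entries for Cyp4a14 and Vnn1, which are described below. Fabp1 encodes the liver fatty acid binding protein. It was not among the lower genes, since its levels overlapped: 745 to 2385 FPKM in the mitosis-high libraries against 1550 and 3779 in the mitosis-low ones. The Fabp1 promoter is shown with the repeat, on the opposite strand, in capitals.
Fabp1, chr6:71199729-71199878, plus strand: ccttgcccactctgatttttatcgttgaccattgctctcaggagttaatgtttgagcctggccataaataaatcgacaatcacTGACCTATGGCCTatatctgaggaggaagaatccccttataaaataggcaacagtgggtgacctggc

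Depth recovered from the FPKM values was 15806000 to 22100000 reads (rounded) in the 6 libraries, and 98.1% to 98.7% of low values fell on whole reads (within 0.05 reads, for values up to 20 reads). FPKM summed to between 326835 and 620460 per library, and reads of mitochondrial genes made up 7.58% to 23.7%. Without mitochondrially encoded genes the mitosis-low libraries summed to 396296 (48 h) and 360148 (7 d). The mitosis-high ones summed to 385822 (48 h), 288193 and 270845 (72 h) and 275753 (7 d). All mitosis-high sums but that at 48 h were thus below both mitosis-low ones. Xist was at 13.6 to 23.7 FPKM in all 6, with Ddx3y of the Y chromosome at 0 throughout. All 12 other liver libraries had Ddx3y (9.66 to 21.4 FPKM) and almost no Xist (at most 0.137 FPKM), so every comparison with another time also compares these 2 patterns, and the effects cannot be told apart. The hepatocyte markers were present in all 6: Alb, encoding albumin, ran from 18723 to 54144 FPKM, and Hnf4a, a transcription factor of the hepatocyte lineage, from 48.9 to 71.1 FPKM. Genes are described where their mean over the 6 libraries was at least 1 FPKM (10195 genes). Differences are on log2(FPKM + 1), which understates the change of low genes, and are mitosis-high minus mitosis-low. A gene is called higher or lower here when the group means differ by at least 1 on this scale and no library of 1 group overlaps the other.

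By this rule 157 genes were higher in the mitosis-high libraries (1.54% of those described) and 45 were lower (0.441%). The 6 cell cycle lists (3 of mitosis, replication, repair, G1) held 83 of the 157 and 0 of the 45, leaving 74 higher genes outside them. With 4 of the 6 libraries mitosis-high, a low gene passes the level filter more easily when it is higher there. At a mean of at least 5 FPKM the counts were 56 higher and 30 lower. Values were also rescaled so that genes other than the mitochondrially encoded ones had the same sum in each library. The split of 157 and 45 then became 274 higher and 14 lower. All 157 stayed among the higher genes and 14 of the 45 among the lower ones. At 48 h the mitosis-high library was replicate 1 and at 7 d it was replicate 2, so the comparison within each time runs against the replicate number in opposite senses. At least 1 higher in the mitosis-high library at both times were 103 genes (1.01%), 64 of them in the cell cycle lists, and at least 1 lower at both times were 52 genes (0.51%).

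Per-library values are given below in 1 order: for the mitosis-high libraries 48 h replicate 1, 72 h replicate 1, 72 h replicate 2 and 7 d replicate 2, and for the mitosis-low libraries 48 h replicate 2 and 7 d replicate 1. Bub1 (chr2:127801122-127831865, GRCm38, minus strand) was at 5.92, 6.28, 5.13 and 4.26 FPKM in the mitosis-high libraries. It was at 1.09 and 0.192 FPKM in the mitosis-low ones, from 71 and 17 recovered reads against 390 to 710. The library just inside the threshold of 3 FPKM was thus 7 d replicate 2 and the one just outside it 48 h replicate 2. In the 12 other liver libraries Bub1 ran from 0 to 1.23 FPKM, the highest being 21 d replicate 2, and the organoid libraries were at 1.71 and 0.866 FPKM.

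**Figure D1:**
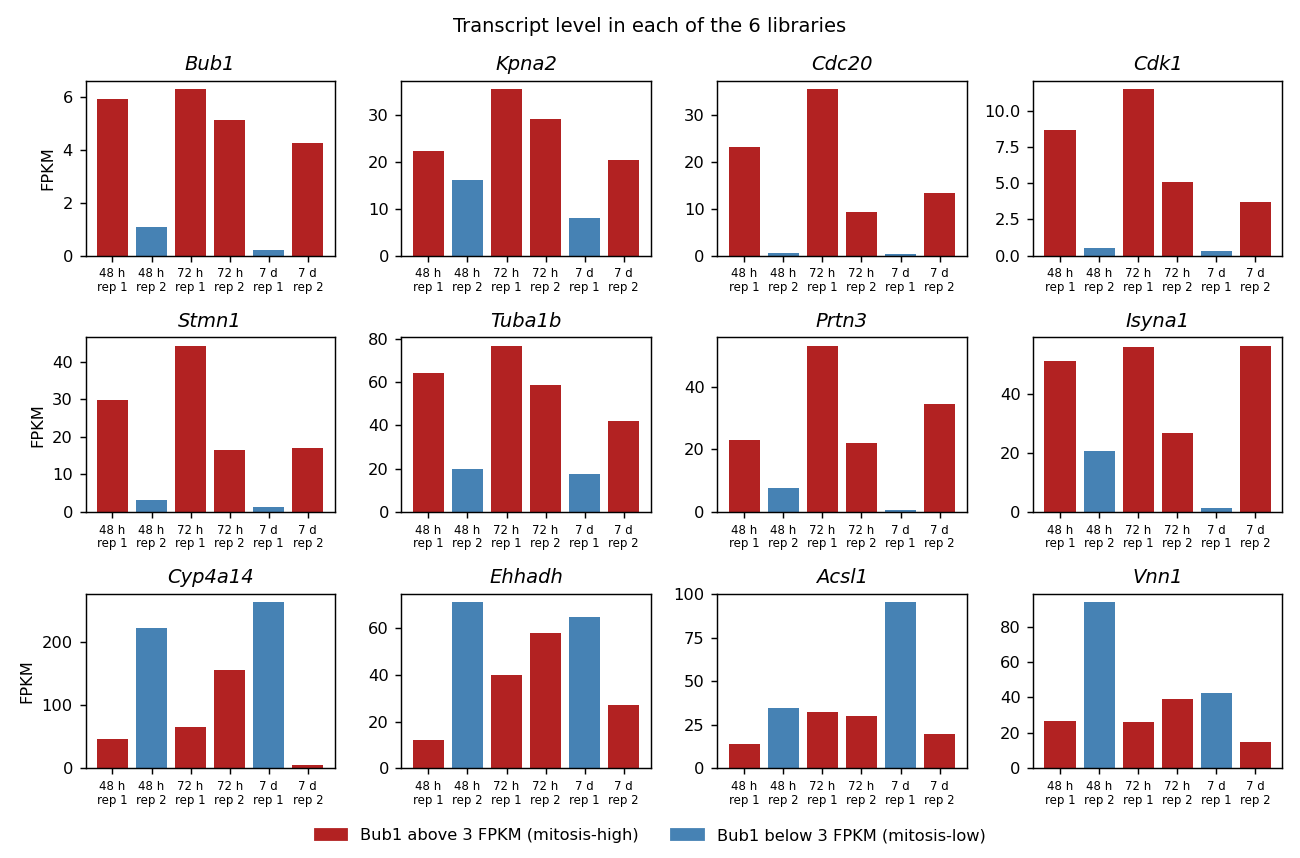
Transcript level in FPKM (vertical axes, each from 0, with its own scale) of 12 genes in the 6 libraries (bars), red for the 4 mitosis-high and blue for the 2 mitosis-low libraries. Cdc20 and Stmn1 are low in both blue bars, and Cyp4a14, Ehhadh, Acsl1 and Vnn1 are at their highest values there.

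The genes of mitosis moved with Bub1 almost as a block, as the choice of groups fixes in part. The lists hold 138 genes, and 94 of them were above the level filter. Of these, 72 were higher without overlap (background 1.54%), 0 were lower, and 92 of the 94 differences were above 0, with a median of 1.43 against -0.04 over all genes described. A low gene passes the filter mainly through the libraries where it is high, so these counts describe the genes and support nothing further. Within 48 h alone the median was 1.41 and within 7 d alone 1.34, and 59 of the 94 were at least 1 higher at both times (background 1.01%).

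Among the kinases, cyclins and factors of mitotic exit, 14 of 22 were higher without overlap (median 1.81). The background is 1.54% and the limit of the level filter holds for this and the next 2 lists. Cdc20, which activates the anaphase-promoting complex, was at 23.2, 35.5, 9.38 and 13.4 FPKM in the mitosis-high libraries and at 0.607 and 0.368 in the mitosis-low ones, a difference of 3.68. Its groups were far apart, while 72 h replicate 2 had the lowest of the high values. Ccnb2, a cyclin B, was at 10.5, 17.8, 24.7 and 13.7 against 0.871 and 0.449 FPKM (difference 3.36), with 72 h replicate 2 now the highest. Ube2c, the ubiquitin-conjugating enzyme of the same complex, was at 11.7, 18.2, 6.74 and 7.06 against 0.59 and 0.264 FPKM. Cdk1, the kinase that drives entry into mitosis, was at 8.63, 11.5, 5.04 and 3.66 against 0.554 and 0.298 FPKM. The exceptions in this class included Pttg1 (securin), at 8.38, 9.21, 5.66 and 7.49 FPKM against 7.40 and 11.8 (difference -0.28), and Fzr1 (Cdh1, an activator of the complex in G1), whose difference was 0.05.

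Of spindle, chromosome and cytokinesis genes 41 of 45 were higher without overlap (median 1.56, background 1.54%). Depdc1a reached the largest difference in this list, 3.33, with 9.07, 14.1, 11.7 and 6.97 FPKM against 0.0201 and 0.207. Mki67, the proliferation marker Ki-67, was at 8.09, 7.05, 5.84 and 4.91 FPKM against 0.616 and 0.224. The most abundant members had smaller folds. Tubb4b, a beta-tubulin, was at 70.7, 109.0, 36.8 and 47.6 against 22.4 and 30.7 FPKM, H2afz, the histone variant H2A.Z, at 46.1, 73.0, 66.7 and 43.4 against 27.1 and 19.8, and Kpna2, an importin alpha, at 22.3, 35.4, 29.2 and 20.3 against 16.1 and 8.03. Tuba1c, an alpha-tubulin, and Cks2, a Cdk subunit, were also among the 5 most abundant members and lay below the threshold at 0.69 and 0.70. Plk2, a kinase with roles outside mitosis, differed by 0.01.

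Of kinetochore and checkpoint genes 17 of 27 were higher without overlap (median 1.26, background 1.54%). Knstrn, a spindle adaptor at kinetochores, led with 5.44, 8.78, 2.99 and 3.24 FPKM against 0.181 and 0.133. Cenpa, the centromeric histone, was at 4.49, 4.96, 2.89 and 3.93 against 0.512 and 0.904 FPKM. Hjurp, which loads Cenpa, did not follow it: 18.2, 8.48, 12.0 and 9.84 FPKM stood against 11.7 and 12.2, a difference of -0.03. Zwint (0.09), Mis12 (0.17) and Mad1l1 (0.25) also showed small differences with overlapping libraries.

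Genes of DNA replication, which act earlier in the cycle, differed less. Of 55 replication genes described 7 were higher without overlap (background 1.54%), 53 of 55 differences were above 0 and the median was 0.53. Rrm2, the inducible subunit of ribonucleotide reductase, was at 10.4, 6.42, 8.38 and 5.13 FPKM against 2.12 and 0.372 (difference 2.01), and Mcm5, a subunit of the replicative helicase, at 4.65, 4.09, 5.13 and 4.70 against 1.54 and 0.516. Pcna, the sliding clamp, was at 16.0, 20.6, 33.1 and 19.9 FPKM against 13.5 and 7.79. The low library at 48 h thus had Pcna close to its high counterpart while its Cdc20 was low, and the low library at 7 d was low in both. The mean log2 level of the replication list was 1.93 to 2.23 in the mitosis-high libraries, 1.30 and 1.60 in the mitosis-low ones, and 1.14 to 2.06 at 6 to 24 h.

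Of 17 genes of G1 cyclins and cell cycle inhibitors 3 were higher without overlap (background 1.54% for this and the next 2 lists): Cdkn3 (2.12), a phosphatase acting on Cdk, Cdkn2c (1.31) and Cdkn2d (1.11), INK4 inhibitors of Cdk4 and Cdk6. Cyclin D1, Ccnd1, was at 3.98, 5.19, 14.3 and 10.2 FPKM against 6.36 and 6.76, so the groups overlapped. Its difference was 0.17. Of 16 p53 target genes 1 was higher, Phlda3, and Cdkn1a (p21) was at 8.97, 13.1, 2.22 and 3.44 FPKM against 3.08 and 4.18. Of 9 homologous repair genes 1 was higher, Rad51ap1 (1.40).

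Outside the cell cycle, fatty acid oxidation and PPARA target genes were the list with the most members lower in the mitosis-high libraries. Of 38 list genes 36 were described, 8 of them (22.2%, background 0.441%) were lower without overlap and 35 of 36 differences were below 0, with a median of -0.67 against -0.04 over all genes. Within 48 h all 36 were below 0 (median -1.27) and within 7 d 34 of 36 (median -0.86), the exceptions being Cd36 and Pparg. At least 1 lower at both times were 9 of 36 (background 0.51%). Whether fewer expressing cells or less RNA per cell lies behind such a difference cannot be told apart in bulk libraries. After rescaling to the same sum 1 of the 36 remained without overlap, and the median was -0.37 beside a median over all genes of 0.21. Rescaled by the median ratio over the 6 libraries, the values were 6 of 36 and -0.62 beside 0.00.

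Cyp4a14, an omega-hydroxylase of fatty acids and a classical PPARA target (chr4:115486200-115496142, minus strand), was at 46.6, 65.3, 157 and 5.94 FPKM in the mitosis-high libraries and at 224 and 264 in the mitosis-low ones. The difference was -2.50, the largest decrease among named genes, and 72 h replicate 2 came nearest to the low group. Its paralog Cyp4a10 (difference -2.28) overlapped through the same library, at 100 FPKM against 92.2 and 243, and reads of such close copies may be divided between them. Ehhadh, the peroxisomal bifunctional enzyme, was at 12.3, 40.0, 58.0 and 26.9 against 71.2 and 65.0 FPKM. Vnn1, a pantetheinase, was at 26.6, 26.4, 39.1 and 14.9 against 93.8 and 42.6 FPKM. Acsl1, which activates long-chain fatty acids, was at 14.0, 32.5, 29.8 and 19.6 against 34.8 and 95.4 FPKM. In Acsl1 the gap between the groups was narrow, 32.5 against 34.8, and in Vnn1 it was 39.1 against 42.6.

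Other members lower without overlap included Pdk4 (-1.67), a kinase that shuts pyruvate oxidation, Acot1 (-1.47), an acyl-CoA thioesterase, and Fgf21 (-1.46), the fasting hormone of the liver. Fgf21 was at 0.194, 0.932, 1.86 and 0.2 FPKM against 6.17 and 1.96, so its 72 h replicate 2 value nearly met the lower of the low libraries. Ppara itself was at 1.94, 4.49, 9.41 and 4.21 FPKM against 9.79 and 7.61 (difference -0.83, overlapping). Enzymes of the mitochondrial spiral differed less: Acadm by -0.61, Acadl by -0.60 and Hadha by -0.58. Cpt1a, the carnitine palmitoyltransferase that admits fatty acids to mitochondria, was at 28.2, 43.3, 56.1 and 39.5 FPKM against 79.5 and 56.3. In it 72 h replicate 2 lay just under 7 d replicate 1.

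**Figure D2:**
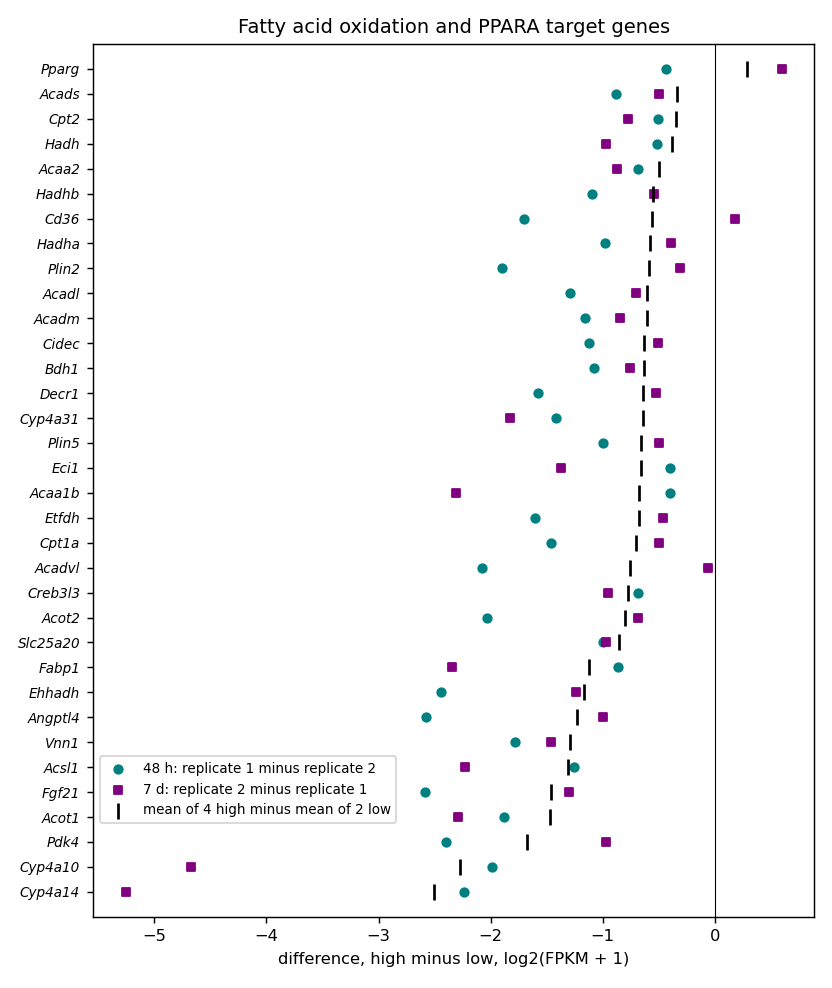
Difference between mitosis-high and mitosis-low libraries on log2(FPKM + 1) (horizontal axis) for 34 of the 36 described genes of the fatty acid list (rows), as circles for 48 h, squares for 7 d and black ticks for the mean of 4 minus the mean of 2 libraries. At 48 h all 34 circles lie below 0, and at 7 d the squares of Cd36 and Pparg lie above it.

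The summed level of secreted hepatocyte products, 27 genes led by Alb, was 73876 to 115299 FPKM in the mitosis-high libraries and 109595 and 130302 in the mitosis-low ones, and the groups overlapped. Their median difference was -0.35, with 0.32 within 48 h and -0.62 within 7 d, so this list did not share the sign of the fatty acid list at 48 h. The part of hepatocyte content in the fatty acid differences was not tested. Across all 20 libraries the mean log2 level of the fatty acid list was 4.14 to 5.04 in the mitosis-high and 5.28 and 5.55 in the mitosis-low libraries. It was 5.33 to 5.89 at 6 to 24 h, 4.69 to 5.37 at 14 and 21 d, 4.18 and 4.82 in undamaged liver and 2.41 and 2.42 in organoids. The mitosis-high libraries thus lay below all 6 early libraries and overlapped the undamaged and late ones, all of which differed from them in Xist and Ddx3y.

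**Figure D3:**
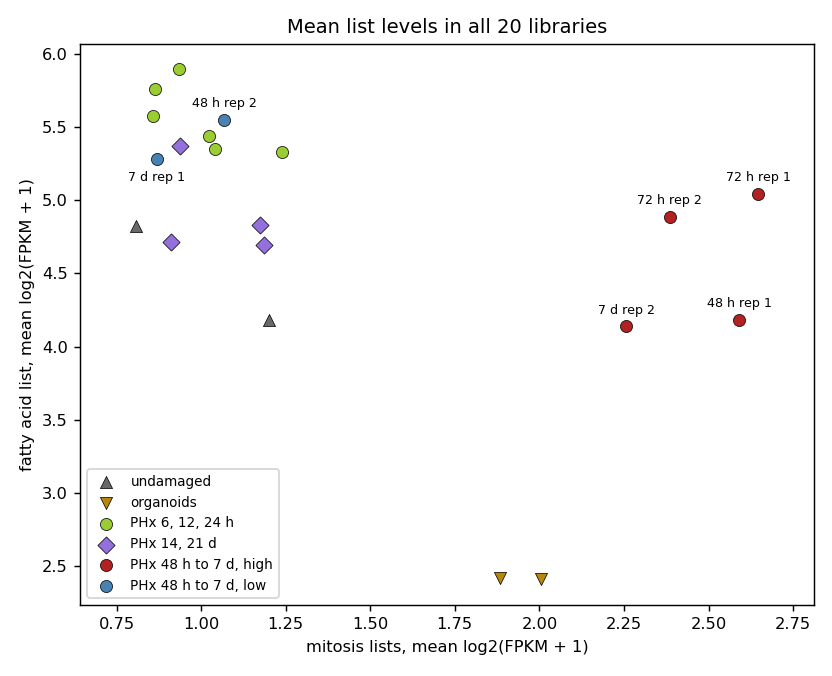
Mean log2(FPKM + 1) of the mitosis lists (horizontal axis) and of the fatty acid list (vertical axis) in each of the 20 libraries (symbols by group). The 4 mitosis-high libraries lie at 2.26 to 2.65 on the horizontal axis, the 2 mitosis-low ones at 0.87 and 1.07 among the other liver libraries, and the organoids lie between these groups.

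Further genes lower at both times without overlap are named by size of decrease. Retsat, retinol saturase, was at 35.9, 18.9, 24.7 and 8.76 FPKM against 73.2 and 59.4 (difference -1.69). G0s2, an inhibitor of the lipase ATGL, was at 36.6, 37.1, 14.5 and 20.8 against 94.4 and 59.1 FPKM. Insig2, which retains the SREBP escort protein in the endoplasmic reticulum, was at 36.2, 46.5, 39.0 and 42.2 against 112 and 105 FPKM. Insig2 had tight groups, and its highest mitosis-high value was well under both mitosis-low ones. Acot4, a peroxisomal thioesterase beside Acot1 on chromosome 12, differed by -1.26. The hairpin genes Mir5125 and Mir122 also met the rule, on no more than 53 and 26 reads per library, which is too few for a firm level of a precursor this short. Of 25 cholesterol genes 2 were lower without overlap (background 0.441%), Hsd17b7 (-1.36) and Msmo1 (-1.05), both enzymes of sterol synthesis. The median of that list was -0.50, with -0.06 within 48 h and -0.35 within 7 d, and Msmo1 differed by -0.18 within 7 d. The mean log2 level of the list was lowest in 72 h replicate 2, at 3.39 against 4.12 to 4.96 in the other libraries. No mitosis-low library is from 72 h, so time and mitotic state cannot be told apart there.

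Of 25 cytoskeleton genes 8 were higher without overlap (32.0%, background 1.54%), with a median of 0.66, and 4 were at least 1 higher at both times (background 1.01%). Stmn1, stathmin, which destabilises microtubules and is phosphorylated in mitosis, was at 29.9, 44.3, 16.4 and 17.1 FPKM against 3.12 and 1.25. The difference was 3.08, close to those of the leading mitotic genes, though the gene was in none of the cell cycle lists. Tuba1b, an alpha-tubulin, was at 64.3, 76.7, 58.6 and 41.8 against 19.9 and 17.4 FPKM, and Tubb5, a beta-tubulin, at 48.9, 42.0, 26.2 and 26.1 against 13.2 and 16.1. Not every tubulin followed: Tubb2a was at 37.4, 43.4, 8.84 and 29.5 against 23.9 and 62.3 FPKM. Its difference was -0.57, and -0.26 and -0.50 under the same-sum and median-ratio rescalings, which gave 1.92 and 1.68 for Tuba1b. Here the median ratio was taken over all 20 libraries. Lgals1 (galectin-1, 1.56), Vim (vimentin, 1.24), Tmsb4x (thymosin beta 4, 1.02) and Anxa2 (annexin A2, 1.01) were also higher. These 4 are abundant in macrophages and mesenchymal cells too. Actb differed by 0.02 and Actg1 by -0.10.

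Markers of Kupffer cells and other macrophages were higher in the same libraries. The sum of the 20 markers was 686, 1021, 703 and 1521 FPKM in the mitosis-high libraries and 576 and 335 in the mitosis-low ones. Of 17 described 4 were higher without overlap (background 1.54%), Cd5l (1.45), Lyz2 (1.29), Cd163 (1.15) and Timd4 (1.14), and all 17 differences were above 0 (median 0.91). The times differed, with a median of 0.20 within 48 h and 1.89 within 7 d, and 0 of the 17 were at least 1 higher at both (background 1.01%), while 13 were above 0 at both. Clec4f, a Kupffer cell lectin, was at 56.6, 130, 66.9 and 129 FPKM against 52.8 and 51.7. Of the 20 markers 0 were at 0 in all 6 libraries, and their part in the differences of Lgals1, Vim, Tmsb4x and Anxa2 was not tested.

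The median differences of 2 other cell types with at least 5 described markers were above 0 at both times. Of 10 stellate and mesenchymal markers 1 was higher, Lum (1.05; background 1.54%), with medians of 0.68 within 48 h and 0.48 within 7 d, and the summed 19 markers were 115 to 139 FPKM against 77.9 and 90.6, without overlap. The sums of 20 endothelial markers overlapped, at 142 to 216 against 130 and 155 FPKM, and 0 of 18 were higher or lower (median 0.38), though 16 of 18 were above 0 at both times (medians 0.67 and 0.38). Of 6 lymphocyte markers 1 was higher, Ighm (1.29), and of 5 cholangiocyte markers 1, Prom1 (1.21), against the same background of 1.54%. Neutrophil markers summed to 63.1 to 214 FPKM against 259 and 8.28, so the low libraries held both the highest and the lowest value, and erythroid markers to 23.5 to 49.1 against 44.0 and 13.7, with Hemgn and Rhag at 0 in all 6. Megakaryocyte, mesothelial and pancreatic or gut lists had 1 described gene each, with sums of at most 6.75, 5.82 and 6.19 FPKM. Treml1, Cpa1, Prss2, Reg1 and Try4 were at 0 throughout.

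**Figure D4:**
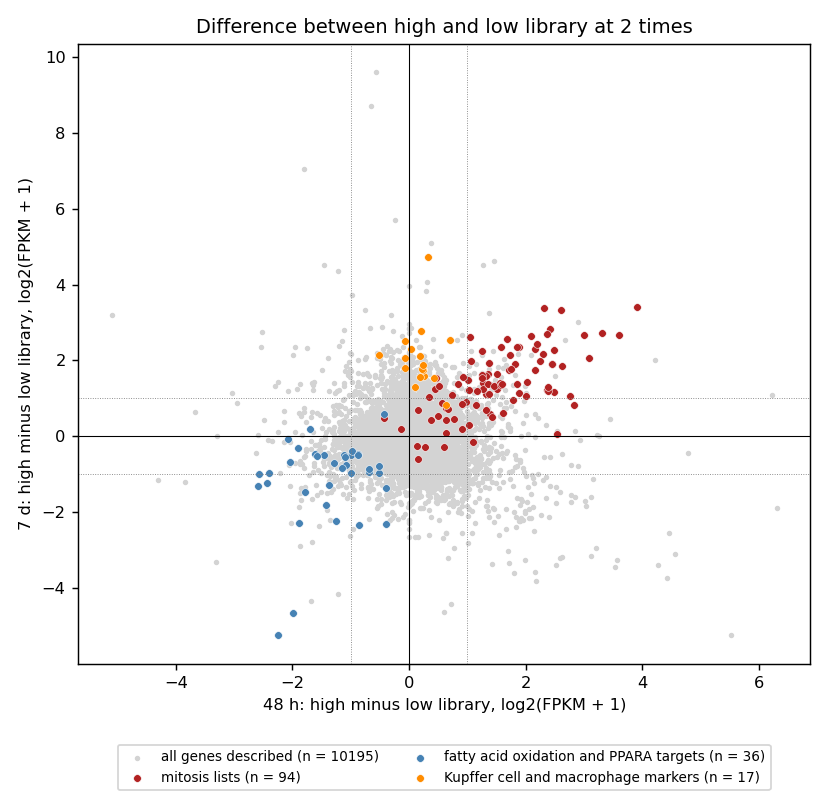
Difference between the mitosis-high and the mitosis-low library at 48 h (horizontal axis) and at 7 d (vertical axis) on log2(FPKM + 1), with 1 point per gene for all 10195 genes described and 3 lists in colour. Dotted lines mark differences of 1. Mitotic genes (red) lie mostly in the upper right, fatty acid genes (blue) in the lower left, and macrophage markers (orange) near 0 at 48 h and above 0 at 7 d.

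Named by size of increase outside the cell cycle lists, 10 genes were eligible: higher without overlap, at least 1 higher at both times and at a mean of at least 5 FPKM. Stmn1, Tuba1b, Lgals1 and Vim are described above. Prtn3, proteinase 3, known as a granule protease of myeloid precursors, led with 23.1, 53.2, 22.1 and 34.7 FPKM against 7.78 and 0.453 (difference 3.17). Elane and Mpo encode other proteins of those granules. Elane was at 1.19, 1.06, 0.053 and 4.15 FPKM against 0.949 and 0, and Mpo at 0.36, 0.281, 0.746 and 6.19 against 0.331 and 0. Both overlapped between the groups, and within 7 d both were higher in the mitosis-high library, as Prtn3 was. The cell source of Prtn3 transcripts was not tested. Isyna1, which makes inositol phosphate from glucose 6-phosphate, was at 51.1, 55.8, 26.7 and 56.3 against 20.6 and 1.49 FPKM. Prtn3 reached 25.1 FPKM in 1 undamaged library and 21.4 at 14 d, and Isyna1 was at 59.0 and 110 FPKM in the organoids, so neither level was particular to these libraries.

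Selenoh, a nuclear selenoprotein, was at 20.7, 22.8, 17.5 and 13.0 FPKM against 6.25 and 3.73, and in no other liver library did it pass 6.70. Tagln2, an actin-binding protein (difference 1.19), and Ifi27l2a, an interferon-induced gene (1.27), were higher by smaller margins. Mup7, a major urinary protein, was at 26.2, 3.28, 6.16 and 8.97 against 0.452 and 1.47 FPKM. Its levels in undamaged liver were 10572 and 20417 FPKM, in libraries that differ from these 6 in Xist and Ddx3y, and reads of its near-identical paralogs cannot be assigned with certainty. Several of the remaining 74 genes have known roles in cell division but stood in none of the lists. Picked out after their values were seen, they were Spdl1 (1.26), a kinetochore recruiter of dynein, Prr11 (1.18), Diaph3 (1.13) and Cip2a (1.82). These are low genes that pass the level filter mainly through the mitosis-high libraries. Other genes picked after their values were seen are myeloid genes such as Laptm5 (1.09), Plek (1.17) and Ccl2 (1.06). Each of these myeloid genes differed by at most 0.24 within 48 h and by at least 2.12 within 7 d.

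Over all genes, most differences of at least 1 at 1 time were not matched at the other. At 48 h 433 genes were at least 1 higher (4.25%) and 296 lower (2.9%), and at 7 d 584 higher (5.73%) and 576 lower (5.65%). At least 1 higher at 48 h and at least 1 lower at 7 d were 113 genes, and 41 the reverse. Across genes, which are not independent replicates, the 2 sets of differences had a Pearson correlation of -0.04 over all 10195 genes, 0.66 over the 94 mitotic genes and -0.11 over the 10020 outside the cell cycle lists. The choice by Bub1 and the level filter fix the value over mitotic genes in part, so it supports nothing further. The list median of mitochondrially encoded transcripts was 0.92 at 48 h and -1.45 at 7 d. Of 40 cytochrome P450 and drug metabolism genes 1 was lower without overlap (Cyp4a14 again, background 0.441%), with medians of 0.31 at 48 h and -1.01 at 7 d.

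Acute phase proteins had a median of -0.24 at 48 h and 1.59 at 7 d. Saa1, the acute phase reactant serum amyloid A1, was at 7618, 1439, 268 and 6138 FPKM against 11902 and 13.6, so the low libraries were the highest and the lowest of the 6. Ribosomal proteins (median -0.11, 0 of 38 called), nuclear-encoded respiratory chain subunits (-0.24, 0 of 38), ribosome biogenesis factors (0.04, 0 of 28) and unfolded protein response genes (-0.22, 0 of 21) had no called member. The background for the counts of this paragraph was 1.54% higher and 0.441% lower, so lists of these sizes would hold few called genes or none. All 38 respiratory chain differences were below 0, mostly through 7 d, where the median was -0.70. Hepatocyte transcription factors had a median of -0.33 with 1 of 21 lower, Nr1i3 (CAR, -1.09). Among urea cycle and amino acid genes 1 of 28 was lower, Tdo2 (-1.09), and among interferon genes 0 of 27 were called (median 0.34).

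**Figure D5:**
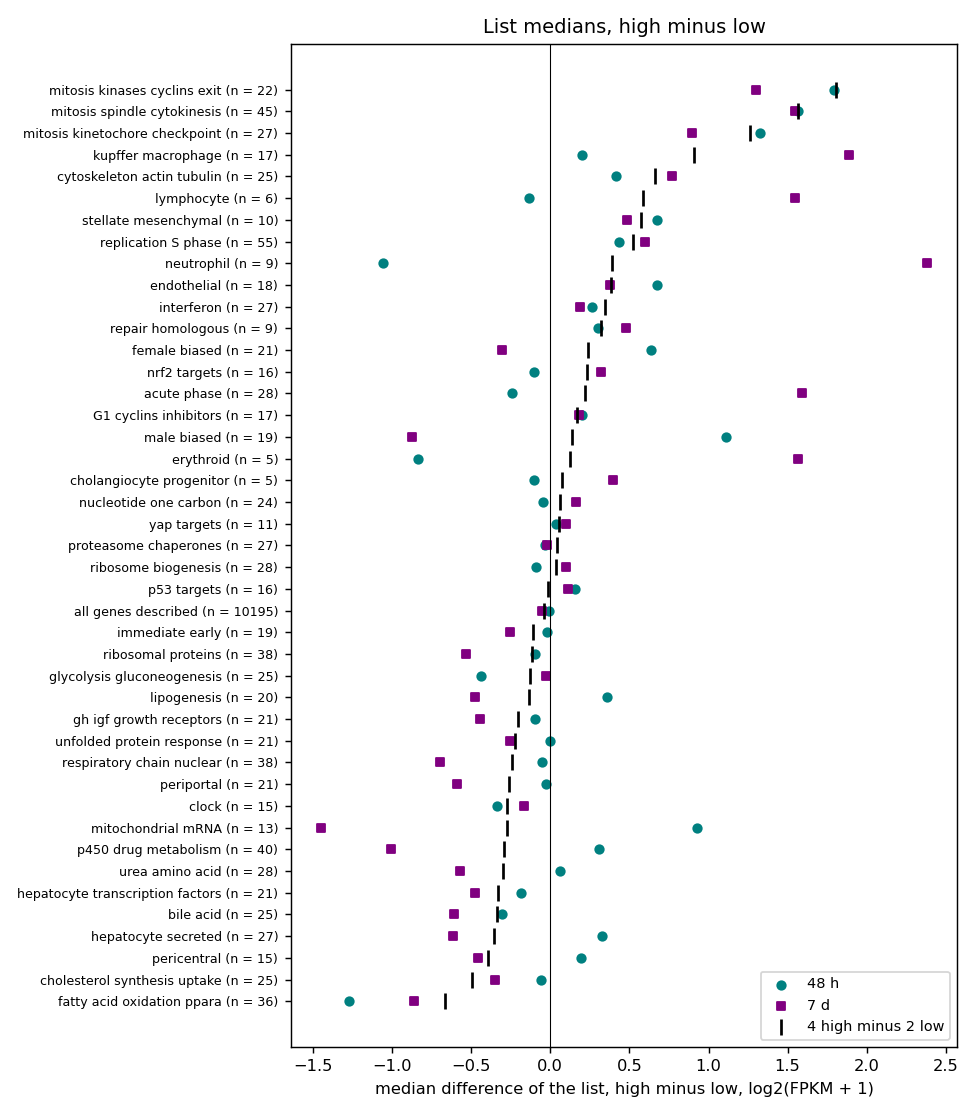
Median difference of each list, mitosis-high minus mitosis-low, on log2(FPKM + 1) (horizontal axis), within 48 h (circles), within 7 d (squares) and over all 6 libraries (black ticks), with the number of described genes beside each name. The 3 mitosis lists are at the top, from 1.26 to 1.81, the fatty acid list at the bottom at -0.67, and neutrophil and mitochondrial lists have circles and squares on opposite sides of 0.

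The labelled times, which do not use the choice by Bub1, were tested with limma on log2(FPKM + 1), with 2 libraries per time and the spread estimated from all 20 libraries. That spread includes the organoid pair, in which replicate 1 had Ddx3y (9.90 FPKM) and almost no Xist. Organoid replicate 2 had Xist (25.3 FPKM) and almost no Ddx3y. Of 13162 genes 4 differed over 48 h, 72 h and 7 d (0.0304%), at a Benjamini-Hochberg adjusted p under 0.05 and a range of at least 1. None of the 119 mitotic genes tested was among them (21 had an unadjusted p under 0.05, and their median F was 2.09 against 0.62 over all genes), nor any of the 38 fatty acid genes (0 unadjusted, median F 0.33). In the labelled comparison each of 48 h and 7 d holds 1 library of each kind. The 4 genes were Sult3a1 (limma F 86.0, adjusted p 3.8e-04) and Sult3a2 (adjusted p 0.00675), sulfotransferases with female-biased expression, BC023105 (adjusted p 0.0217) and the organic anion transporter family gene Slc22a27 (adjusted p 0.0453). The list of female-biased liver genes held 3 of these 4. Of its 22 genes tested, 12 had an unadjusted limma p under 0.05, and its median F of 5.77 was the largest of any list.

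Sult3a1 was 3.33 ± 0.255 (SE) higher at 7 d than at 72 h (59.4 against 4.73 FPKM, limma adjusted p 8.76e-05), the 1 gene called in that comparison (0.0076%). Sult3a2 differed by -2.13 ± 0.222 between 72 h and 48 h (4.12 against 20.7 FPKM, limma adjusted p 0.00359), again the 1 gene called (0.0076%). Between 7 d and 48 h 5 genes were called (0.038%), all higher at 7 d. Of these, the largest changes at a mean of at least 5 FPKM were Raet1d (2.03 ± 0.306, adjusted p 0.0453), a ligand of the NKG2D receptor, Sult3a1 (1.87 ± 0.255, adjusted p 0.0272) and Cyp3a41a (1.64 ± 0.227, adjusted p 0.0272). The replicate number at these times also separates 2 submissions of the series. With it as a block, limma called 2 genes over the times in place of 4, and 1 between 7 d and 48 h in place of 5. At an unadjusted p under 0.05 the 4 tests without the block had 576, 771, 402 and 571 genes. At a pseudocount of 0.1, or with the spread taken from the 6 libraries alone, limma called 0 genes in each of the 4 tests. Since the labels do not give separate animals, each p-value reflects library-to-library spread, which may be technical.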

How the data were processed

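Transcript levels were measured by RNA sequencing of total RNA. The authors deposited 1 table of FPKM for 54532 genes in 20 columns, all of which were used. The submitters' processing notes name HISAT2 2.0.5 and mm10. How reads were counted, on which annotation, with or without strand and with which scaling is not given in the sources used here. Without strand, reads of overlapping antisense genes cannot be told apart. The column of 1 undamaged library was matched to its group only. Exon lengths and positions came from GENCODE M21 (GRCm38), symbols matched 54409 identifiers, and promoters came from RefSeq (GRCm38.p6, 32851 entries). Depth was recovered by taking low FPKM values as whole reads.

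The mitosis-high and mitosis-low libraries, the 45 gene lists (1184 entries) and the list-based choices were made with earlier results of these data known, and nothing that was known is counted as independent support. Differences between groups chosen by Bub1 carry no p-value. The labelled times were tested with limma 3.58.1 in R 4.3.3 (1 mean per group, trend and robust moderation, 10 residual degrees of freedom) over genes that reached 1 FPKM in 2 or more libraries, with Benjamini-Hochberg adjustment over all genes tested. On simulated data of these 3 times the F test recovered 88.5% of 200 genes changed by log2 3 among 13162, and called 5 unchanged genes.

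Named genes were Bub1 and the 5 mitotic genes of highest level, up to 12 per direction outside the cell cycle lists (no overlap, at least 1 in the same direction at 48 h and 7 d, mean of at least 5 FPKM in the higher group, predicted genes left out), up to 4 members of each list with the largest difference, and up to 3 called genes per labelled contrast and direction. Values of 3 genes that met these rules or stood in a list are not reported here, though counts and medians include them. Other list members are named as examples chosen after their values were seen. Alternatives were another pseudocount (0.1), no filter or a mean of at least 5 FPKM, 2 rescalings, the 48 h and 7 d libraries alone, each library left out, a fit to the 6 libraries alone and a replicate block. The same sum was that of genes other than the mitochondrially encoded ones. The median ratio was taken over the 6 libraries for the groups chosen by Bub1, and over all 20 for the tubulins and the labelled times. Tables and figures were made in Python 3.11.15 (pandas 2.3.3, numpy 2.4.6, matplotlib 3.10.9).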

Additional observations from a re-analysis of the deposited data

Results flagged for a closer look

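In the mitosis-high libraries the mean log2 level of the secreted hepatocyte products was 11.19 in 48 h replicate 1 and 10.37, 10.47 and 10.51 in the other 3. The gap from the highest to the next value was 0.830 of the range, just above Dixon's critical value for 4 samples. Of 73 items checked this way, chance would flag about 1 in 20.

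Of 42 lists with at least 5 described genes, 16 had medians of opposite sign at 48 h and 7 d, and 4 of these were at least 0.5 in size at both times. In these 4 lists the difference between mitosis-high and mitosis-low library had opposite signs at 48 h and at 7 d, with 1 library of each kind per time, so these differences were not tested. The median of mitochondrially encoded transcripts was 0.925 at 48 h and -1.448 at 7 d. Male-biased liver genes were at 1.112 and -0.8737, in libraries that all had Xist and no Ddx3y. Neutrophil markers were at -1.054 and 2.38, and erythroid markers at -0.8369 and 1.568.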

How the results depend on the processing

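The count of higher genes (157) became 293 at a pseudocount of 0.1, 56 at a mean of at least 5 FPKM and 274 after rescaling to the same sum, and ran from 165 to 391 with each library left out (391 without 48 h replicate 2, 288 without 7 d replicate 1, which leave 1 mitosis-low library). The count of lower genes (45) became 14 after rescaling to the same sum and 111 with the 48 h and 7 d libraries only, and ran from 53 to 329 (329 without 48 h replicate 2, 192 without 7 d replicate 1, 78 without 48 h replicate 1). Genes higher at both times (103) became 193 at a pseudocount of 0.1 and 32 at a mean of at least 5 FPKM, and genes lower at both times (52) became 90, 34 and, rescaled to the same sum, 34. The mitotic members higher (72) were 16 at a mean of at least 5 FPKM, where fewer genes are described, and 65 to 75 with a library left out. The fatty acid members lower (8) were 5 at that mean, 1 after rescaling to the same sum, 18 with 48 h and 7 d only, 7 relative to the median of all genes (an alternative chosen after seeing the data) and 6 to 14 with a library left out, the 14 without 7 d replicate 1. The cytoskeleton members higher (8) ran from 6 to 10. Of the 9 list medians of at least 0.5 in size, among 42 lists, 1 reversed: lymphocyte markers were at -0.1349 within 48 h (0.586 over all 6 libraries). With no limit on size, 16 of the 42 medians had the opposite sign within 48 h alone and 4 within 7 d alone. Among 22 named genes 0 reversed. Where no construction explains a change, the cause was not tested.

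For the labelled times, the 4 genes differing over the times became 0 at a pseudocount of 0.1, 13 with no filter, 8 and 7 under the same sum and the median ratio, 0 in a fit to the 6 libraries alone and 2 to 8 with a library left out, where the lone sample is assumed to vary like the other groups. Between 72 h and 48 h the 1 gene became 0, 8, 3 (same sum) and 0 under those settings, and 0 to 8 with a library left out. Between 7 d and 72 h the 1 gene became 0, 2 and 0 (6 libraries alone), and 1 to 3. Between 7 d and 48 h the 5 genes became 0, 10, 17, 8 and 0, and 4 to 8. Where limma called 0 genes, 554, 751, 372 and 541 had an unadjusted p under 0.05 in the 4 tests at a pseudocount of 0.1, and 588, 801, 342 and 669 in the 6 libraries alone. With the replicate number as a block the counts were 2, 1, 1 and 1. Deviations of libraries with the same number correlated at 0.179, 0.0464 and 0.105 for the 3 pairs of times, not all above 0.1. The number follows the 2 submissions, and the labels tie it to no shared animal, litter or day. Recovered reads limit the lowest genes most: Bub1 rested on 17 reads in 7 d replicate 1.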
